A study of Mus musculus with 24 samples.

Results

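The genes described here are Csf1r, Csf1, Cx3cr1, Adgre1 and Siglech, 5 of the 909 genes that could be named on a glycan-focused Affymetrix array of mouse retina. They were taken by name: every probe set whose transcript identifier maps to one of the 5 genes was used, which gave 8 of the array's 1246 probe sets. RNA of whole retinas was measured in 8 groups of 3 arrays, 24 in all: retinas of P347S+ mice (called mutant) and of P347S- mice (called normal), with ages of 1, 2, 3 or 4 months. The study describes the P347S mice as transgenic for a rhodopsin mutation under which rods are lost slowly. It set out to separate early, middle and late stages of that loss. The sex of the mice is given as unknown. The strain and the promoter of the transgene are not given in the sources used here.

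Microglia are the resident macrophages of the retina, and their survival depends on the receptor tyrosine kinase Csf1r. Its ligands are Csf1, a colony-stimulating factor, and interleukin-34. Cx3cr1 is the receptor for Cx3cl1 (fractalkine), which neurons carry on their surface or shed. Adgre1 encodes an adhesion G-protein-coupled receptor that is widely used as a marker of mouse macrophages. Siglech encodes a receptor of the sialic-acid-binding lectin family that mouse microglia and plasmacytoid dendritic cells carry. When photoreceptors die, microglia are known to enter the outer nuclear layer and to take up debris.

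Values are log2 RMA signals, one per probe set and array, and array medians lay between 5.15 and 5.34. Nothing in the labels ties the arrays to single animals, so each p measures only the spread between these samples, which may be technical. Of 30 listed microglia and macrophage markers 9 were measured, and Gnb1 was the only measured one of 9 genes listed for rods, so neither cell type could be counted. In whole retina more cells of a type and more RNA per cell cannot be told apart. Grifin, a galectin-related gene of the lens, reached 11.29 on replicate 2 of the 2-month mutant group, against 11.33 on replicate 2 of the 2-month normal group and 10.16 on replicate 1 of the 4-month normal group. These 3 arrays were left out in one alternative.

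The receptor Csf1r was higher in mutant retinas at every age. At 1 month it read 7.20, 7.29 and 7.55 in mutant retinas, against 6.36, 6.59 and 7.16 in normal retinas. The values at 2 months were 7.57, 7.60 and 7.65 in mutant and 6.75, 6.81 and 6.99 in normal retinas. At these ages no mutant array fell among the normal arrays, but at 1 month the gap between the nearest arrays was narrow. Signals of 7.51, 7.59 and 8.35 were read at 3 months in mutant retinas, against 6.70, 6.86 and 6.88 in normal retinas. At 4 months the mutant arrays gave 7.81, 7.87 and 8.04 and the normal arrays 6.63, 6.67 and 6.95. All 12 mutant arrays lay above all 12 normal arrays. Over the 4 ages Csf1r rose 1.86-fold (log2 difference 0.89 ± 0.09, SE, n = 24 arrays, limma adjusted p = 7.56e-07), the sixth largest rise on the array.

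Cx3cr1, the fractalkine receptor, showed the same order of genotypes. At 1 month its 3 mutant arrays read 7.60, 7.66 and 7.92, against 7.03, 7.10 and 7.15 in normal retinas. Readings of 7.66, 7.87 and 8.0 were found at 2 months in mutant retinas, where the normal arrays lay close together at 6.74, 6.76 and 6.80. Every mutant array of these ages was above the normal arrays of its age. At 3 months the values were 7.69, 8.07 and 8.63 in mutant and 7.11, 7.21 and 7.30 in normal retinas. The mutant arrays spread most at 4 months, with 7.56, 8.23 and 8.51, against 6.83, 6.95 and 7.15 in normal retinas. The lowest mutant value of any age, 7.56, still exceeded the highest normal value, 7.30. Over the 4 ages Cx3cr1 rose 1.91-fold (0.94 ± 0.10, SE, n = 24, adjusted p = 7.91e-07 in limma). The suffix s of its only probe set means that the probes can match other transcripts too.

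Adgre1, the adhesion receptor, gave a low signal, with a mean of 3.95 over all arrays, between the 25th percentile (3.83) and the median (5.26) of all probe sets. Background is not known in that range, so its fold is uncertain. At 1 month Adgre1 read 4.15, 4.16 and 4.36 in mutant retinas and 3.33, 3.46 and 3.57 in normal retinas. At 2 months the mutant arrays scattered widely, at 3.69, 4.18 and 4.75, against 3.43, 3.52 and 3.56 in normal retinas. Replicate 3 gave the low value and stood near the normal range. At 3 months Adgre1 was measured at 4.18, 4.39 and 5.07 in mutant retinas and at 3.55, 3.59 and 3.68 in normal retinas. The 4-month arrays read 4.36, 4.45 and 4.52 in mutant and 3.49, 3.54 and 3.77 in normal retinas. Genotypes did not overlap within any age, although the 2-month mutant array at 3.69 lay below the highest normal array of 4 months. Over the 4 ages Adgre1 rose 1.76-fold (0.81 ± 0.10, SE, n = 24, adjusted p = 4.19e-06 in limma).

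Siglech was measured by 3 probe sets, none with a strong signal. The one with the highest mean (5.13) has the suffix x and may not be specific to Siglech. At 1 month that probe set read 5.24, 5.28 and 5.45 in mutant retinas, against 4.82, 4.98 and 5.06 in normal retinas. At 2 months it read 4.98, 5.07 and 5.50 in mutant retinas and 4.66, 4.80 and 4.93 in normal retinas. The gap between genotypes was small at both ages, and replicate 3 of the 2-month mutant group was again the lowest mutant array. At 3 months the readings were 5.19, 5.41 and 5.64 in mutant and 4.83, 4.94 and 5.08 in normal retinas. Mutant arrays of 4 months gave 5.27, 5.34 and 5.57, and normal arrays 4.85, 5.06 and 5.13. Genotypes stayed apart within each age but overlapped between ages. Over the 4 ages the difference was 0.40 ± 0.07 (SE, n = 24, 1.32-fold, adjusted p = 1.46e-04 in limma).

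The other Siglech probe sets rose by a like amount. The probe set with suffix s ran from 3.38 to 4.00 over the mutant arrays (median 3.70) and from 3.21 to 3.51 over the normal arrays (median 3.35), a difference of 0.31 ± 0.05 (SE, limma adjusted p = 1.42e-04). The probe set without a suffix, the one not marked as shared, ran from 2.83 to 3.62 in mutant arrays (median 3.26) and from 2.70 to 3.20 in normal arrays (median 2.88). Its difference was 0.34 ± 0.07 (limma adjusted p = 0.00145). Both have mean signals under the 25th percentile of the array, so their folds are uncertain.

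Csf1, the ligand, rose less than its receptor. Its probe set with suffix a read 7.38, 7.40 and 7.57 at 1 month in mutant retinas, against 7.24, 7.26 and 7.40 in normal retinas, and the genotypes met there. At 2 months Csf1 gave 7.54, 7.62 and 7.63 in mutant retinas and 7.18, 7.19 and 7.24 in normal retinas. From this age on the genotypes were apart. At 3 months the mutant arrays read 7.63, 7.73 and 8.17 and the normal arrays 7.35, 7.45 and 7.55. At 4 months they read 7.68, 7.72 and 7.91 in mutant and 7.30, 7.33 and 7.42 in normal retinas. The difference over the 4 ages was 0.34 ± 0.05 (SE, n = 24, 1.27-fold, limma adjusted p = 6.40e-05). The second Csf1 probe set, with suffix s, ran from 6.15 to 6.66 in mutant arrays (median 6.30) and from 5.74 to 6.15 in normal arrays (median 5.97). It differed by 0.36 ± 0.05 (limma adjusted p = 3.98e-05).

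**Figure D1:**
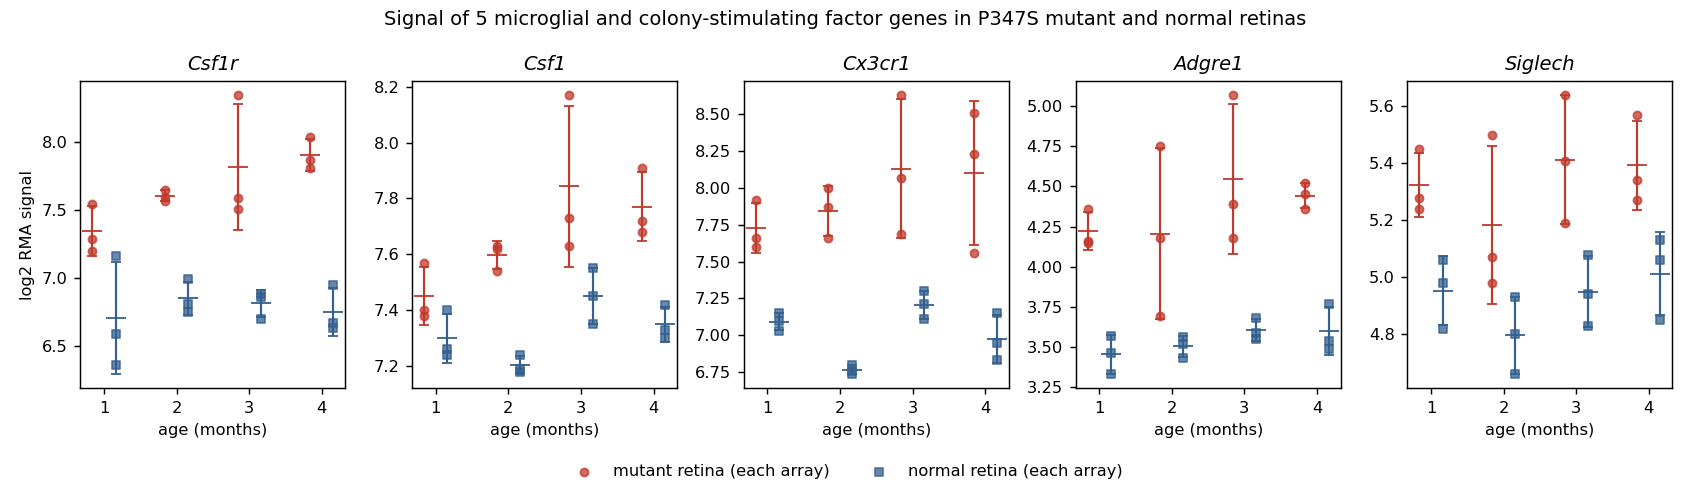
Log2 RMA signal (vertical axes, a separate range for each gene) against age in months for Csf1r, Csf1, Cx3cr1, Adgre1 and Siglech, by the probe set of each gene with the highest mean. Points are single arrays, bars are the mean ± SD of 3 arrays, and mutant retinas stand left of normal retinas at each age; Csf1 at 1 month is the only panel and age where the genotypes meet.

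All 5 genes rose over the 4 ages, and so did all 8 probe sets, while 13.8% of the 1246 probe sets were called higher in mutant retinas. The median difference of the 5 genes was 0.81, against -0.03 over all probe sets. All 12 mutant arrays exceeded all 12 normal arrays for Csf1r, Cx3cr1 and the second Csf1 probe set, a separation that 0.722% of probe sets showed. For the second Csf1 probe set the gap was very small: the lowest mutant and the highest normal array both read 6.15 when rounded. The genes were chosen with these rises already known, so the counts describe them and are not independent support.

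The rises were not of equal size. Each pair of genes was compared by the genotype difference in the log2 ratio of their signals within an array, with an exact two-sided permutation test that exchanged genotypes within each age (160000 arrangements), adjusted over the 10 pairs. The Csf1r rise exceeded the Csf1 rise by 0.55 (adjusted p = 4.17e-05) and the Siglech rise by 0.49 (adjusted p = 3.33e-04), with this sign at all 4 ages. The Cx3cr1 rise exceeded those of Csf1 by 0.60 (adjusted p = 4.17e-05) and of Siglech by 0.54 (adjusted p = 4.17e-05). Adgre1 rose by 0.47 more than Csf1 (adjusted p = 3.25e-04) and by 0.42 more than Siglech (adjusted p = 3.12e-04), also at all 4 ages. The smallest unadjusted p, 1.25e-05, is the smallest that these arrangements can give. The signals of Csf1r, Cx3cr1 and Adgre1 thus changed more than those of Csf1 and Siglech.

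No difference was found among the 3 larger rises. Csf1r and Cx3cr1 differed by -0.04 (95% interval in limma -0.22 to 0.13, exact permutation adjusted p = 0.635), Csf1r and Adgre1 by 0.08 (-0.12 to 0.27, adjusted p = 0.509), and Cx3cr1 and Adgre1 by 0.12 (-0.08 to 0.33, adjusted p = 0.400). Between the 2 smaller rises, Csf1 and Siglech differed by -0.06 (-0.18 to 0.06, adjusted p = 0.409). These intervals do not show that the genes changed alike, and a ratio of 2 probe sets also holds their unequal response to RNA.

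Stage by stage, the first calls of the main fit came at 2 months. The adjustment depends on all probe sets of an age, so calls are not directly comparable between ages. In limma an unadjusted p of 0.00227 for Csf1r at 1 month became 0.155. For Siglech at 3 months 0.00226 became 0.0296. At 1 month 0 of the 5 genes passed in limma, where 0.241% of all probe sets were called higher. At an unadjusted p under 0.05 it was 4 of 5, against 9.23% of all probe sets in either direction. With array weights 4 of 5 passed after adjustment. The differences at 1 month were 0.65 ± 0.19 for Csf1r (adjusted p = 0.155), 0.63 ± 0.20 for Cx3cr1 (0.179), 0.77 ± 0.20 for Adgre1 (0.0903), 0.37 ± 0.13 for Siglech (0.301) and 0.15 ± 0.10 for Csf1 (0.772). Mutant and normal arrays did not overlap for 4 of the 5 genes, a separation that 10.4% of all probe sets also showed at this age. The second Csf1 probe set read 0.36 ± 0.11 at 1 month (adjusted p = 0.162), beside the 0.15 of the first. Single arrays changed calls at this age: without replicate 3 of the 1-month normal group Csf1r passed (0.0293), without replicate 3 of the 3-month mutant group Csf1r (0.0369) and Adgre1 (0.0314) passed, and Adgre1 also passed without replicate 2 (0.0295) or replicate 3 (0.0247) of the 2-month mutant group.

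At 2 months 3 of the 5 genes rose, Csf1r (0.76 ± 0.19, limma adjusted p = 0.0244), Cx3cr1 (1.07 ± 0.20, adjusted p = 0.00463) and Csf1 (0.39 ± 0.10, adjusted p = 0.0442), against 1.52% of probe sets called higher. Adgre1 differed by 0.70 ± 0.20 (adjusted p = 0.0511) and Siglech by 0.39 ± 0.13 (adjusted p = 0.120). The other Siglech probe sets differed by 0.17 (suffix s, limma adjusted p = 0.462) and 0.27 (no suffix, 0.390). Same-numbered mutant and normal arrays of this age deviated together, so the replicate number was also used as a block. With that block Csf1 lost its call (limma adjusted p = 0.0995) and Adgre1 gained one (0.0499). In the 6 arrays of this age alone, with the block, Csf1r (0.0109) and Cx3cr1 (0.00491) passed and Csf1 (0.0884) and Adgre1 (0.0821) did not. Without the 3 arrays with a high Grifin signal, 2 of which are 2-month arrays, 0 of the 5 genes passed at 2 months in limma, with differences of 0.71 for Csf1r (adjusted p = 0.201), 1.01 for Cx3cr1 (0.116) and 0.40 for Csf1 (0.217). Adgre1 then differed by 0.44 (0.473) and Siglech by 0.23 (0.660). With Grifin and Dcn signals as covariates, 0 passed as well. Dcn, listed here with lens and connective tissue genes, read 4.60, 6.45 and 6.90 on the 2-month normal arrays. Its 2-month mutant arrays read 4.23, 4.49 and 4.78. Replicate 3 of the normal group, at 6.90, was kept when the high-Grifin arrays were left out. The part of such tissue in the 2-month differences was not tested. With all arrays and no covariate, 5 of 5 had an unadjusted p under 0.05, against 14.4% of all probe sets in either direction. Csf1r lost its call without replicate 2 or 3 of either 2-month group (adjusted p of 0.0575 to 0.0981), and Csf1 without any 1 of 13 arrays (0.0510 to 0.156). Adgre1 passed without replicate 3 of the 2-month mutant group (0.96, 0.00597) and without replicate 1 (0.0407) or replicate 3 (0.0177) of the 3-month mutant group.

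At 3 months all 5 genes passed, where 6.66% of probe sets were called higher: Csf1r (1.01 ± 0.19, limma adjusted p = 0.00174), Adgre1 (0.94 ± 0.20, 0.00450), Cx3cr1 (0.92 ± 0.20, 0.00496), Siglech (0.46 ± 0.13, 0.0296) and Csf1 (0.39 ± 0.10, 0.0200). Of the 8 probe sets 7 passed, and the second Csf1 probe set did not (0.26 ± 0.11, limma adjusted p = 0.114). That probe set passed at 2 months (0.0378) and at 4 months (0.0103). With only the 3-month arrays 2 of the 5 passed, and Cx3cr1 (0.0556), Siglech (0.0878) and Csf1 (0.143) did not. With array weights 3 passed, without Csf1 (0.0514) and Siglech (0.0741). At 4 months 4 of the 5 passed, where 9.47% were called: Csf1r (1.16 ± 0.19, adjusted p = 3.34e-04), Cx3cr1 (1.12 ± 0.20, 7.07e-04), Adgre1 (0.84 ± 0.20, 0.00624) and Csf1 (0.42 ± 0.10, 0.00903). Siglech differed by 0.38 ± 0.13 (adjusted p = 0.0647), while its probe set with suffix s passed at this age (0.43 ± 0.10, adjusted p = 0.00725). Its probe set without a suffix did not pass at 4 months (0.31 ± 0.14, limma adjusted p = 0.167). Csf1 lost its 4-month call without replicate 1 of the mutant group (0.0578), and Siglech gained one without replicate 2 of the 2-month mutant group (0.0319) or replicate 3 of the 3-month mutant group (0.0472). At 3 months Csf1 also lost its call without replicate 1 (0.0551) or replicate 3 (0.0606) of the normal group, and Siglech without replicate 1 of the mutant group (0.0524) or replicate 1 (0.108) or 2 (0.0826) of the normal group. By 1 probe set per gene, all 5 genes were without overlap between genotypes at 2, 3 and 4 months. So were 9.07%, 13.2% and 17.1% of all probe sets. The Siglech probe set without a suffix overlapped at 2 months.

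**Figure D2:**
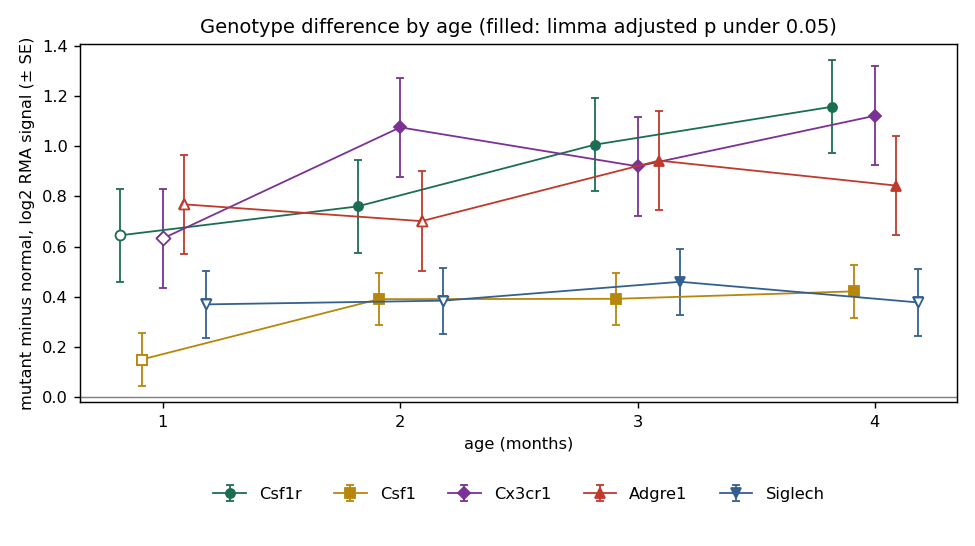
Mutant minus normal log2 RMA signal (vertical axis, ± SE from limma) against age in months for the 5 genes. Filled symbols passed at a limma adjusted p under 0.05 and open symbols did not; at each age Csf1r, Cx3cr1 and Adgre1 lie above Siglech and Csf1, and Csf1 at 1 month is the lowest point (0.15).

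A change of the difference with age was not detected for any of the 5 genes. Csf1r gave the largest estimates: its difference at 4 months exceeded that at 1 month by 0.51 ± 0.26 (limma adjusted p = 0.481), followed by Cx3cr1 (0.49 ± 0.28, 0.561) and Csf1 (0.27 ± 0.15, 0.511). Estimates for Adgre1 (0.07 ± 0.28) and Siglech (0.01 ± 0.19) were near 0. So was that of the second Csf1 probe set (0.06 ± 0.15, limma adjusted p = 0.941). In the moderated F test over all ages the adjusted p ran between 0.547 for Csf1r and 0.983 for Siglech. After adjustment 0.241% and 0.321% of all probe sets were called in these tests. At an unadjusted p under 0.05 it was 0 of the 5 genes in both, against 11.4% and 14.4% of all probe sets. The standard errors leave room for changes of the size seen.

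Within mutant retinas 4 months minus 1 month was 0.56 ± 0.19 for Csf1r (limma adjusted p = 0.118) and 0.32 ± 0.10 for Csf1 (0.117), and smaller for Cx3cr1 (0.37 ± 0.20, 0.397), Adgre1 (0.22 ± 0.20, 0.725) and Siglech (0.07 ± 0.13, 0.918) relative to the error. Of the 5 genes 0 passed after adjustment, where 2.65% of all probe sets passed. Csf1r and Csf1, 2 of the 5, had an unadjusted p under 0.05, as had 15.1% of all probe sets. Csf1r passed with array weights (adjusted p = 0.0423), on the 6 arrays compared alone (0.0430) and without mutant retinas of 3 months replicate 3 (0.0388). Csf1 passed with array weights (0.0340) and without that array (0.0236). The second Csf1 probe set gave a smaller 0.14 ± 0.11 (unadjusted p = 0.204, adjusted p = 0.653 in limma). In normal retinas the same differences lay between -0.11 (Cx3cr1) and 0.14 (Adgre1). There 0 of the 5 genes and 0% of all probe sets passed in limma, and 0 of the 5 genes and 7.38% of all probe sets had an unadjusted p under 0.05.

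One array carried the highest mutant value of all 5 genes: mutant retinas of 3 months replicate 3, with 8.35 for Csf1r, 8.17 for Csf1, 8.63 for Cx3cr1, 5.07 for Adgre1 and 5.64 for Siglech. It was also the highest mutant array for 220 of the 1246 probe sets (17.7%) and for 65 of the 172 that rose (37.8%). Replicate 3 of the 2-month mutant group was the highest mutant array for more probe sets, 337 (27.05%), but for 2 of the 172 that rose. The high 3-month array had a Grifin signal of 5.69, like the 5.73 and 5.69 of the other arrays of its group. Without it, the 3-month differences were 0.74 for Csf1r (limma adjusted p = 0.0134), 0.67 for Cx3cr1 (0.0405), 0.68 for Adgre1 (0.0347), 0.35 for Siglech (0.139) and 0.23 for Csf1 (0.121), so that 3 of the 5 genes passed. Over the 4 ages all 5 passed whichever array was left out.

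Some of the 5 genes also varied together from array to array within the mutant genotype. Pearson's r and Spearman's rho were taken over the 12 mutant and the 12 normal arrays apart, since the genotypes form separate clusters, with two-sided permutation tests of 100000 resamples adjusted over 20 relations. Csf1 and its receptor Csf1r were the closest pair over mutant arrays (r = 0.95, adjusted p = 6.00e-04; rho = 0.77, adjusted p = 0.0468). Leaving out the 2 arrays farthest from the Csf1r median gave r = 0.84, and leaving out the 3-month array with the highest values gave r = 0.90 (permutation adjusted p = 0.00980). For scale, r over the same 12 arrays had a median of 0.09 and a 95th percentile of 0.65 over all pairs of probe sets.

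Csf1 and Cx3cr1 followed each other in both genotypes. Their r was 0.85 over mutant arrays (permutation adjusted p = 0.00480; rho = 0.74, adjusted p = 0.0493) and 0.83 over normal arrays (permutation adjusted p = 0.00760; rho = 0.85, adjusted p = 0.0154). Without the 2 arrays farthest from the Csf1 median r was 0.55 in mutant and 0.78 in normal retinas, and without the high 3-month array the mutant r was 0.75 and no longer passed (permutation adjusted p = 0.0543). Csf1 and Cx3cr1 were the only one of the 10 pairs that passed over normal arrays. These permutations exchanged arrays across ages, so shifts shared by an age group count too. With deviations from the group means r was 0.83 over mutant and 0.68 over normal arrays. Neither passed (permutation adjusted p = 0.0619 and 0.0996).

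The remaining mutant pairs were looser. Csf1r and Cx3cr1 (r = 0.78, permutation adjusted p = 0.0124; rho = 0.54, adjusted p = 0.136), Cx3cr1 and Siglech (r = 0.76, adjusted p = 0.0128; rho = 0.72, adjusted p = 0.0493) and Adgre1 and Siglech (r = 0.77, adjusted p = 0.0128; rho = 0.62, adjusted p = 0.0789) passed by r. Without the 2 farthest arrays their r was 0.38, 0.51 and 0.43, and without the high 3-month array it was 0.63, 0.67 and 0.67 and did not pass (permutation adjusted p of 0.123, 0.104 and 0.104). The other 5 mutant pairs had r of 0.53 to 0.63 and did not pass (permutation adjusted p of 0.0709 to 0.124), and fell to between -0.01 and 0.35 without those arrays. No p was computed without the 2 farthest arrays. Whether the genotypes differ in any r was not tested. Over normal arrays Csf1r had r of 0.51 with Adgre1, 0.36 with Csf1, 0.12 with Cx3cr1 and 0.07 with Siglech (permutation adjusted p of 0.136 to 0.833; rho of 0.51, 0.31, 0.17 and 0.04).

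Age was removed by taking deviations from the 8 group means over all 24 arrays, permuted within groups and adjusted over 10 pairs. Csf1r and Csf1 then had r = 0.84 (permutation adjusted p = 0.00495; rho = 0.80, adjusted p = 0.00560), and Csf1 and Cx3cr1 r = 0.80 (adjusted p = 0.00495; rho = 0.72, adjusted p = 0.0148). By genotype, the deviations of Csf1r and Csf1 had r = 0.95 over mutant and 0.72 over normal arrays. Neither of these passed with the genotypes taken apart (permutation adjusted p of 0.0717 or more). Csf1r and Cx3cr1 (r = 0.61, adjusted p = 0.0130; rho = 0.62, adjusted p = 0.0176) and Cx3cr1 and Siglech (r = 0.65, adjusted p = 0.0201; rho = 0.60, adjusted p = 0.0328) passed too. Leaving out the 2 farthest arrays gave 0.75, 0.65, 0.51 and 0.60 for these 4 pairs. Over all pairs of probe sets such deviations had a median r of 0.09 and a 95th percentile of 0.57, and the genes of an array share its RNA and its hybridisation.

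**Figure D3:**
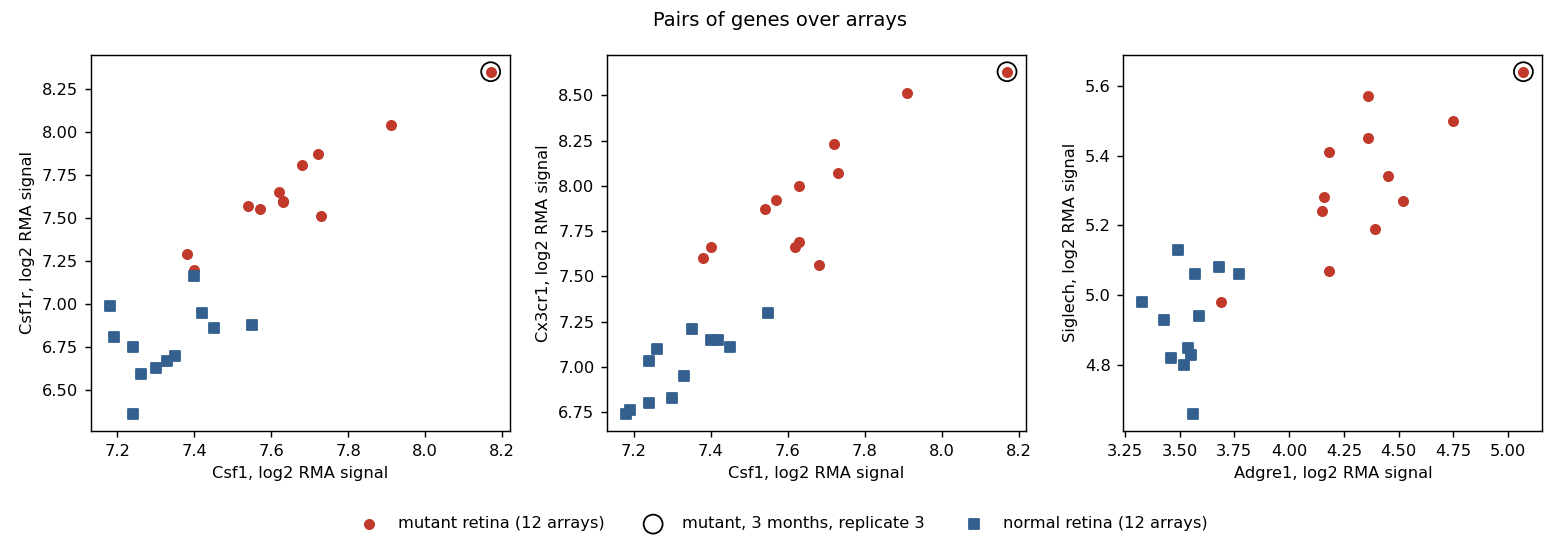
Log2 RMA signals of 3 pairs of genes, 1 point per array: Csf1r against Csf1, Cx3cr1 against Csf1, and Siglech against Adgre1, with 12 mutant (circles) and 12 normal (squares) arrays. The ringed mutant array of 3 months replicate 3 is at the top right of each panel; r of Csf1r with Csf1 is 0.95 over the mutant and 0.36 over the normal arrays, a difference that was not tested.

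The genes most like each of the 5 were sought by Pearson's r over the 8 group means, a description with no test that mainly follows the genotype. For Csf1r they were the monocyte chemokine Ccl12 (r = 0.98), the heparan sulfate 6-O-endosulfatase Sulf1 (0.98) and the leukocyte antigen Cd48 (0.98). For Adgre1 they were Havcr2, which encodes the immune checkpoint receptor Tim-3 (0.98), Sulf1 (0.96) and Cd48 (0.96). Cx3cr1 was nearest to the granulocyte colony-stimulating factor receptor Csf3r (0.97), the N-acetylglucosaminyltransferase B3gnt2 (0.97) and Havcr2 (0.96). Siglech followed Btc (0.97), a ligand of the EGF receptor family, B3galt1 (0.97), a galactosyltransferase, and Acvr1 (0.96), an activin receptor. Csf1 followed the lysosomal glucuronidase Gusb, B3galt1 by its other probe set and the phosphoglucomutase Pgm2 (all 0.96).

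Within groups, over the deviations of 24 arrays from their group means, r of these 15 pairs ran widely, and no test was made. It was 0.65 for Adgre1 with Cd48 and 0.62 for Siglech with Btc, above the 95th percentile over all pairs of probe sets (0.57). The other 13 pairs lay below it: r was 0.55 and 0.51 for Havcr2 with Cx3cr1 and Adgre1, 0.54 for Csf1 with Gusb, 0.46 for Csf1r with Cd48, 0.45 and 0.43 for Sulf1 with Adgre1 and Csf1r, 0.43 for Cx3cr1 with Csf3r and 0.36 for Csf1r with Ccl12. The lowest were 0.22 for Csf1 with Pgm2, 0.21 for Siglech with B3galt1, 0.08 for Cx3cr1 with B3gnt2, 0.002 for Siglech with Acvr1 and -0.19 for Csf1 with the other B3galt1 probe set. Group means of the members themselves had r of 0.88 (Csf1 with Siglech) to 0.97 (Csf1r with Adgre1).

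Because these genes rose together, their start-site regions were searched for the letters read by 3 families of factors. RefSeq windows (GRCm38.p6) of 300 bases, 250 before and 50 after the start, were at hand for Csf1, Cx3cr1 and Siglech. The first 260 bases of each are shown 5′ to 3′ on the strand of the gene, with a match in capitals: Csf1 at chr3:107760460-107760719 on the minus strand, Cx3cr1 at chr9:120068287-120068546 on the minus strand and Siglech at chr7:55767934-55768193 on the plus strand.
Csf1: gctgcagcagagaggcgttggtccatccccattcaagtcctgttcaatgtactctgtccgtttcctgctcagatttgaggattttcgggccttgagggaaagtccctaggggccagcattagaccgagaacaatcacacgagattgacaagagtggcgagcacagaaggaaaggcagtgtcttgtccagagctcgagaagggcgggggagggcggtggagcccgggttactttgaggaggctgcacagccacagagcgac
Cx3cr1: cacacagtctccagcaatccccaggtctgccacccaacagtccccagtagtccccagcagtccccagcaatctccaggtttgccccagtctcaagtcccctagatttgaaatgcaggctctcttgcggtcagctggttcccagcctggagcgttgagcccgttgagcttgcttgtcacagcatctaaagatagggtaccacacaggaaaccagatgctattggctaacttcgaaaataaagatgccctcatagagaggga
Siglech: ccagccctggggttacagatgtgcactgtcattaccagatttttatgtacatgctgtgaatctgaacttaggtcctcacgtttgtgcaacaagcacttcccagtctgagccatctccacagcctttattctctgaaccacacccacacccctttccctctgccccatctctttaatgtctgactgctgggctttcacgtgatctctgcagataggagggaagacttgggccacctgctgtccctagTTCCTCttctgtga

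Both strands were searched for GAGGAA, a core read by the myeloid ETS factor PU.1, for TGANTCA (AP-1) and for the core of interferon-stimulated response elements. The Siglech window held 1 match, GAGGAA on the opposite strand, whose first base lies at -4 from the start. The windows of Csf1 and Cx3cr1 held none of the 3. Of all 32851 RefSeq windows, 28.3% held GAGGAA, 7.81% TGANTCA and 3.44% the interferon core, so the Siglech match is common in windows of this length. A match of letters is no binding site, and no match says only that these letters are not in the window.

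Ligands and receptors around the 5 genes were counted against the 13.8% of all probe sets called higher and the 8.83% called lower over the 4 ages. Lists that hold some of the 5 genes also count the rises already known. Of 16 measured ligands and receptors of the Csf1r family and its relatives, 8 rose, 0 fell and 8 did not pass, with a median difference of 0.15 against -0.03 over all probe sets. Besides Csf1 and Csf1r these were the cytokine receptor chains Csf3r (0.26 ± 0.06, limma adjusted p = 0.00485), Csf2ra (0.24 ± 0.07, 0.0173), Csf2rb (0.20 ± 0.06, 0.0194) and Csf2rb2 (0.13 ± 0.05, 0.0416), and the platelet-derived growth factor genes Pdgfc (0.24 ± 0.05, 0.00108) and Pdgfra (0.62 ± 0.15, 0.00546). Csf2 (-0.09 ± 0.05, adjusted p = 0.219), Csf3 (-0.09 ± 0.05, 0.176), Flt3 (-0.05 ± 0.04, 0.439), Flt3l (-0.01 ± 0.05, 0.888) and Kit (0.18 ± 0.07, 0.0737) did not pass. Of the colony-stimulating factors measured, Csf1 was thus the one called higher, and its receptor showed the largest difference of the list.

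Cx3cl1, the ligand of Cx3cr1, rose by 0.21 ± 0.07 over the 4 ages (limma adjusted p = 0.0276). Its differences were 0.00 at 1 month, 0.19 at 2, 0.22 at 3 and 0.43 at 4 months, where alone it passed (adjusted p = 0.0371), and a change with age was not detected (adjusted p = 0.526). Its signals had medians of 9.75 in mutant and 9.57 in normal arrays, and the genotypes overlapped. In the list of the fractalkine axis and monocyte chemokines 5 of 13 rose and 0 fell (median 0.11), against 13.8% and 8.83% of all probe sets: Cx3cr1, Cx3cl1, Cxcl12 (0.67 ± 0.08), Ccl12 (0.63 ± 0.12) and Cxcl10 (0.19 ± 0.06). The second probe set of Cxcl12 read 0.03 ± 0.11 and did not pass (adjusted p = 0.852). Ccr2, the receptor of inflammatory monocytes, lay low in both genotypes (2.63 to 2.95 over the mutant, 2.77 to 2.86 over the normal arrays), a difference of -0.01 ± 0.04 (adjusted p = 0.862).

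Of 9 siglecs 1, Siglech, rose and 1, Siglec15, fell (-0.12 ± 0.04, limma adjusted p = 0.0364), and 7 did not pass (median -0.02). These counts are near the 13.8% called higher and 8.83% called lower over all probe sets. Among those 7 were the macrophage siglec Siglec1 (-0.06 ± 0.05, adjusted p = 0.384) and the myeloid Cd33 (-0.02 ± 0.04, 0.712). Adgre4, the other measured gene of the Adgre family, differed by -0.03 ± 0.05 (0.697). Of the 9 microglia and macrophage markers 5 rose and 0 fell, with a median of 0.17: the 4 receptors above and Clec4a3, a C-type lectin (0.17 ± 0.05, 0.0104). The 4 receptors were chosen with their rises known, and Clec4a3 alone rose among the other markers. Mrc1, the mannose receptor of perivascular macrophages, did not pass (-0.01 ± 0.06, 0.891), nor did Cd209a (-0.07 ± 0.05, 0.2955). Mean signals of this list, the 4 receptors included, ran from 4.76 to 5.22 in mutant arrays and from 4.47 to 4.68 in normal arrays.

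Genes that activated microglia are known to carry, many of which other cells share, rose in 9 of 12 cases and fell in 0 (median 0.34), where 13.8% of all probe sets were called higher. The smallest p belonged to the adhesion molecule Icam1 (1.00 ± 0.12), Cd48 (0.69 ± 0.10), the galectin Lgals9 (0.71 ± 0.11), the granule proteoglycan serglycin, Srgn (0.48 ± 0.09), the interleukin-1 receptor Il1r1 (0.37 ± 0.08) and the growth factor Igf1 (0.27 ± 0.06). Lgals3 (-0.01 ± 0.18, limma adjusted p = 0.960), Il1b (-0.03 ± 0.05, 0.6955) and Il6 (-0.01 ± 0.04, 0.899) did not pass. Of 6 TGF-beta ligands and receptors, which keep microglia in the resting state, Tgfbr2 (0.64 ± 0.09) and Tgfb2 (0.29 ± 0.06) rose and 0 fell (median 0.19), against the same 13.8%. The second probe set of Tgfbr2 gave 0.00 (limma adjusted p = 0.954). Tgfb1 (0.03 ± 0.10, adjusted p = 0.870) and Tgfbr1 (0.07 ± 0.06, 0.433) did not pass.

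Markers of other cells were counted beside the 5 genes, where 8.83% of all probe sets were called lower and 13.8% higher over the 4 ages. Of 14 genes of T, B, dendritic cells and neutrophils 1 rose (Csf3r), 2 fell (Cd207, -0.16 ± 0.05, and Itgae, -0.55 ± 0.16) and 11 did not pass, with a median of -0.06. Mean signals of that list overlapped, at 4.03 to 4.44 for mutant and 4.15 to 4.42 for normal arrays. Of 3 platelet genes Pf4 fell (-0.17 ± 0.05) and 0 rose, where list means were 3.75 to 4.01 (mutant) and 3.91 to 4.06 (normal). Of 4 lens and connective tissue genes 0 passed in limma (Bgn, 0.05 ± 0.10, and Lum, 0.06 ± 0.11, had the smallest p, adjusted p = 0.712 and 0.716), where list means were 4.65 to 6.07 (mutant) and 4.56 to 6.86 (normal). At 2 months Dcn differed by -1.48, Lum by -0.52, Bgn by -0.43 and Grifin by 0.80, and none passed. Reactive Müller glia and astrocytes were represented by 5 genes, of which Vcam1 (0.81 ± 0.08), Icam1, Fgf2 (0.34 ± 0.05) and Cd44 (1.01 ± 0.25) rose, where list means were 6.21 to 7.03 (mutant) and 5.67 to 6.45 (normal). Of 5 endothelial genes Mcam (0.34 ± 0.06) and Cd34 (0.32 ± 0.07) rose and 0 fell, where list means were 4.54 to 5.05 (mutant) and 4.47 to 4.83 (normal). Gnb1, the rod gene, fell (-0.21 ± 0.06, adjusted p = 0.0121). The part of these cells in the rises of the 5 genes was not tested.

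**Figure D4:**
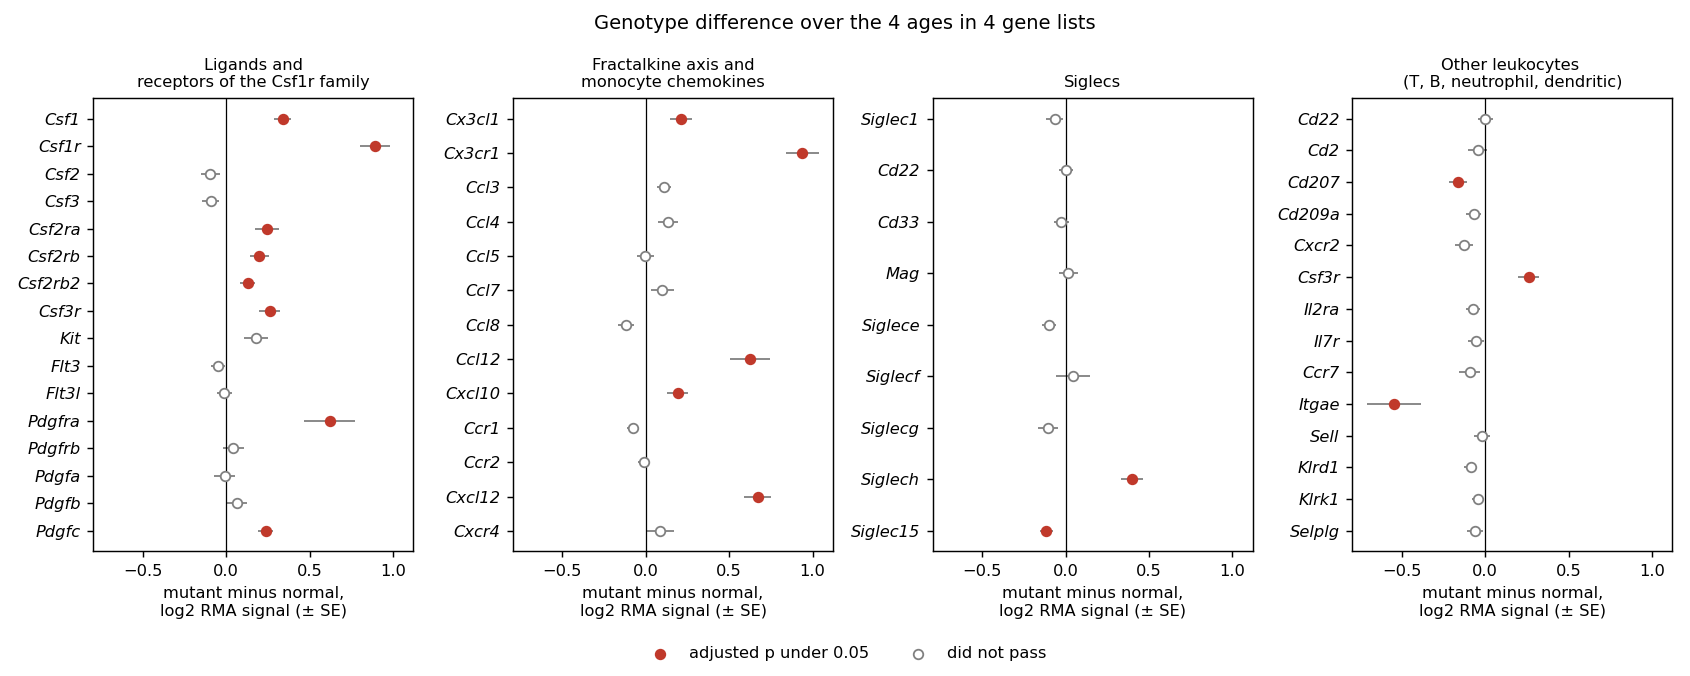
Mutant minus normal log2 RMA signal over the 4 ages (horizontal axes, ± SE from limma) for the measured genes of 4 lists, 1 probe set per gene. Red points passed at an adjusted p under 0.05 and open points did not; 8 of 16 ligands and receptors of the Csf1r family, 5 of 13 genes of the fractalkine and chemokine list, Siglech alone of 9 siglecs and Csf3r alone of 14 leukocyte genes rose.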

How the data were processed

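Total RNA of 24 mouse retina samples was measured on a glycan-focused Affymetrix array. The deposited values are log2 signals, and the submitters' processing notes name RMA as the authors' tool; other settings are not given in the sources used here. Probe sets were named by transcript identifier through RefSeq (963 of 1246), and 1 probe set per gene, that with the highest mean, was used except where others are named.

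Groups of 3 arrays were compared in limma 3.58.1 (R 4.3.3) with 8 group means on all 1246 probe sets, and p-values were adjusted by Benjamini-Hochberg within each contrast at 0.05. Permutation tests were run in numpy 2.4.6, with ranks and Benjamini-Hochberg adjustment from scipy 1.17.1. The procedures were tested on simulated data. Array number limits the precision. No 2 arrays held identical values. Same-numbered mutant and normal arrays deviated together (r of 0.25 to 0.66) at 2 months and not at the other ages (-0.03 to 0.08). The main tests paired no arrays at any age, and the permutations for pairs of genes exchanged arrays freely within an age. The replicate number entered only as a block in alternatives, fitted at all ages or in the 2-month arrays alone.

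The genes and lists were chosen with earlier results of these data known. Named were all probe sets of the 5 genes, their ligands, receptors and partners, up to 6 genes per list by smallest p among those that passed (the 2 smallest where none did), and the 3 genes most like each of the 5. Some listed genes that did not pass are named too. Alternatives changed the scaling, filters, array weights, variance model, replicate block, covariates, threshold and arrays used. One listed gene is not reported here and was left out of its list's counts.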

Additional observations from a re-analysis of the deposited data

How the results depend on the processing

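The differences of the 5 genes over the 4 ages kept their sign and their call under every alternative run (34 or 35 per gene), at 0.80 to 0.95 for Csf1r, 0.27 to 0.37 for Csf1, 0.85 to 1.00 for Cx3cr1, 0.73 to 0.88 for Adgre1 and 0.36 to 0.43 for Siglech. Of the 10 comparisons between genes, the 6 that passed kept sign and call under all 26 alternatives each, and the other 4 passed under none, with Csf1r minus Cx3cr1 between -0.10 and 0.00. No call reversed its sign. Adgre1 and Siglech fall out when probe sets under the median signal are left out. Calls at single ages were less stable, and the cause was not tested. With array weights 4 genes passed at 1 month (Csf1r 0.70, Cx3cr1 0.66, Adgre1 0.78, Siglech 0.43), 5 at 2 months (Adgre1 0.88, Siglech 0.48) and 3 at 3 months (Csf1 0.33 and Siglech 0.40 lost), and Siglech passed at 4 months (0.44). With only the groups compared, which leaves fewer arrays for the spread, 2 passed at 1 month (Cx3cr1 0.63, Adgre1 0.77) and 2 at 3 months (Csf1 0.39, Cx3cr1 0.92 and Siglech 0.46 lost), and Csf1 lost its call at 2 months (0.39). Without the 3 high-Grifin arrays 1 passed at 1 month (Adgre1 0.77) and 0 at 2 months (Csf1r 0.71, Csf1 0.40, Cx3cr1 1.01), Csf1 at 4 months lost its call (0.40) and Siglech gained one (0.44). With Grifin and Dcn as covariates 0 passed at 2 months (Csf1r 0.90, Csf1 0.42, Cx3cr1 0.96) and Siglech at 3 months did not (0.42). With the replicate block at 2 months Csf1 (0.39) lost and Adgre1 (0.70) gained a call, at 4 months Siglech gained one (0.38), and Csf1 (0.39) also lost it in the 2-month arrays alone with the block, chosen after seeing the data. The block changed no other call of the 5 genes at an age or over the ages, and it cannot be fitted for age within a genotype. An intensity trend cost Csf1 its 2-month call (0.39) and gave Adgre1 one (0.70), as did leaving out probe sets under the 25th percentile (Adgre1 0.70). Centring each array gave Siglech a 4-month call (0.41). At an adjusted p under 0.01, 1 gene passed at 2 months (Csf1r 0.76 and Csf1 0.39 lost) and 3 at 3 months (Csf1 0.39 and Siglech 0.46 lost). Over mutant arrays r from deviations was 0.95 for Csf1r with Csf1, 0.73 for Csf1r with Cx3cr1, 0.83 for Csf1 with Cx3cr1, 0.79 for Cx3cr1 with Siglech and 0.75 for Adgre1 with Siglech, and over normal arrays 0.68 for Csf1 with Cx3cr1, none of which passed (permutation adjusted p of 0.0619 to 0.180).

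Leaving out 1 array at a time moved the differences over these ranges: for Csf1r 0.47 to 0.87 at 1 month and 0.71 to 0.83 at 2 months; for Csf1 0.38 to 0.42 at 2, 0.23 to 0.50 at 3 and 0.35 to 0.47 at 4 months; for Adgre1 0.70 to 0.83 at 1 and 0.43 to 0.96 at 2 months; for Siglech 0.35 to 0.57 at 3 and 0.29 to 0.44 at 4 months. Between 0 and 2 of the 5 genes then passed at 1 month, 1 to 4 at 2 months, 3 to 5 at 3 months and 3 to 5 at 4 months. Without replicate 3 of the 3-month mutant group, an alternative chosen after seeing the data, r was 0.63 for Csf1r with Cx3cr1, 0.75 for Csf1 with Cx3cr1 and 0.67 for Cx3cr1 and Adgre1 with Siglech. Background is unknown for the low signals of Adgre1 and Siglech.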
